A study of Mus musculus with 8 samples.

Results

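The type I interferon-induced antiviral genes described here are a list of 40 mouse genes chosen by name. Each gene was read from the probe set (the group of short probes that measures 1 transcript) with the highest mean over the 8 arrays, among probe sets annotated to that gene alone. Of the 18194 genes with such a probe set, 38 were on the list, and Isg15 and Ifi44 were not analysed here. A gene was tested where at least 2 arrays reached log2 5, a level taken here as background. Of the 38, 35 passed this filter, and Mx2, Bst2 and Ifi203 stayed under it. Oas3, Mx1, Lgals3bp and Tor3a passed through the pools where they were high and had at least 1 pool mean under log2 5, so 31 genes had all 4 pool means at or above it.

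Type I interferons, the alpha and beta forms, are secreted after a cell senses viral nucleic acid and bind a receptor made of Ifnar1 and Ifnar2. Signalling from the receptor leads to a complex with Irf9 that binds the interferon-stimulated response element in promoters. The genes turned on in this way encode proteins that bind or cut viral RNA, block viral entry or replication, or sense nucleic acid and so lead to more interferon. Myeloid cells are known to keep a low resting level of many of these transcripts.

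The arrays carried RNA of CD11b+Gr-1+ myeloid cells, a sort that takes granulocytes and monocytes, from C57BL/6J mice. The marrow cells came from mice aged 3-4 months, HDC-EGFP (called wild-type) or HDC-EGFP/HDC-KO, 3 per genotype, and are described as HDC-expressing. Hdc encodes histidine decarboxylase, which makes histamine, and HDC-EGFP is a reporter that every labelled genotype carries. The tumor cells came from mice of both genotypes aged 7 months, 5 per genotype, given 1 dose of azoxymethane, a carcinogen, and then 10 days of dextran sodium sulfate, an agent that damages the colon wall. Cells of 10-12 colon tumors were pooled per genotype, and no EGFP gate is named for them. Tumor and marrow cells therefore also differed in age, treatment and gate, which cannot be told apart from tissue. Each of the 4 groups was 1 RNA pool, read on 2 technical arrays. Each adjusted p therefore sets the difference of 2 pools against array-to-array noise, and variation from mouse to mouse was not measured. For bone marrow the labels do not say clearly that cells were pooled.

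Over the 8174 tested genes, with 1 probe set each, the correlation of the 2 arrays of a pool was 0.9955 to 0.9981. Of all 45101 probe sets, 30.3% to 31.8% reached log2 5. Hdc, the targeted gene, was at log2 13.14 and 13.21 in wild-type marrow and at 9.79 and 9.87 in HDC-KO marrow, a difference of -3.35 ± 0.05 (SE, limma adjusted p = 1.5e-06). In tumor it was at 13.25 and 13.23 in the wild-type pool and at 13.02 and 13.03 in the other, a difference of -0.21 ± 0.05 that did not pass the test. The targeted transcript was thus not lower in the second tumor pool by the rule used here, and this pool is called the pool labelled HDC-KO tumor throughout. A genotype difference in tumor therefore means a difference by label.

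Measured as levels, the 35 tested genes stood highest in the pool labelled HDC-KO tumor and lowest in HDC-KO marrow or wild-type tumor. The highest of the 4 pool means was in the pool labelled HDC-KO tumor for 27 of the 35, in wild-type marrow for 6, in HDC-KO marrow for 2 and in wild-type tumor for 0. The lowest was in HDC-KO marrow for 17, in wild-type tumor for 14, in wild-type marrow for 3 and in the pool labelled HDC-KO tumor for 1. These places were not counted over all tested genes. The median level over the 35 genes was log2 8.79 in wild-type marrow, 8.49 in HDC-KO marrow, 8.43 in wild-type tumor and 9.79 in the pool labelled HDC-KO tumor. Over all 8174 tested genes the same medians were 8.44, 8.39, 8.45 and 8.51.

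**Figure D1:**
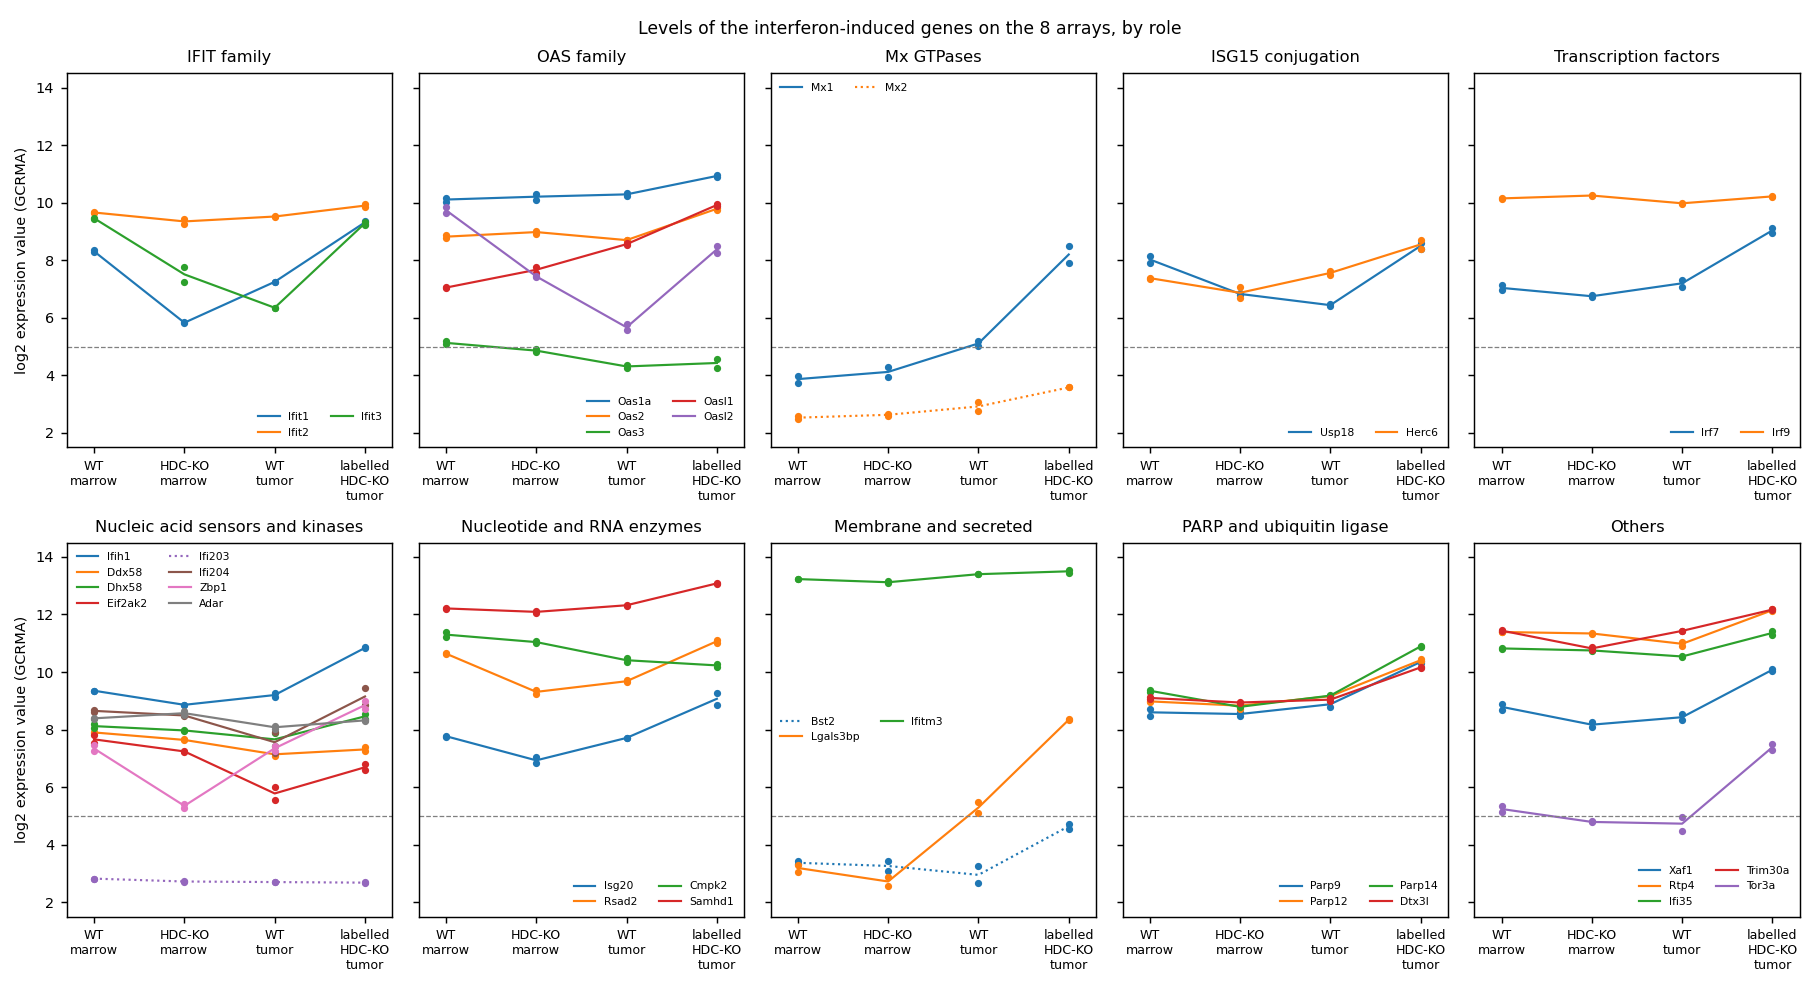
Log2 expression value (vertical axis) of each gene on the 2 arrays of each pool (points), with lines joining the pool means, in 10 panels by role. Dashed lines mark log2 5, and dotted curves are genes that were not tested. Most curves end highest at the pool labelled HDC-KO tumor, the highest pool for 27 of the 35 tested genes. No such count was made over all tested genes.

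The promoters of the list were read for the core of the response element. A RefSeq window from 250 bases before to 50 bases after the transcript start (GRCm38.p6) was at hand for 29 of the 40 genes, and both strands were searched for the core of the interferon-stimulated response element, GAAA, any 2 bases, GAAA (TTTC, any 2 bases, TTTC when read on the other strand), with overlapping matches counted. The core was found in 13 of the 29 genes (44.8%), against 1079 of 27025 genes with a window (3.99%). Counted per window, it was in 14 of 37 (37.8%) against 1131 of 32851 (3.44%). The 13 genes were Ifit1, Ifit3, Oas1a, Oas3, Isg15, Rsad2, Ifih1, Ddx58, Eif2ak2, Bst2, Ifi203, Trim30a and Ifitm3. A match is a description of letters, not a bound site. The 6 genes with the core whose pool means ranged most are printed 5' to 3' on the gene's strand, with the core in capitals, so that the places of the matches can be compared. The stretches are chr19:34640639-34640888 on the plus strand for Ifit1, chr19:34583279-34583528 on the plus strand for Ifit3, chr12:26456453-26456702 on the minus strand for Rsad2 and chr7:104465194-104465443 on the minus strand for Trim30a, each the 250 bases before the start. For Ifih1 the match lay after the start, so bases 21 to 50 of the transcript are shown (chr2:62646206-62646235, minus strand), and for Eif2ak2 bases 9 to 38 (chr17:78882535-78882564, minus strand).
Ifit1: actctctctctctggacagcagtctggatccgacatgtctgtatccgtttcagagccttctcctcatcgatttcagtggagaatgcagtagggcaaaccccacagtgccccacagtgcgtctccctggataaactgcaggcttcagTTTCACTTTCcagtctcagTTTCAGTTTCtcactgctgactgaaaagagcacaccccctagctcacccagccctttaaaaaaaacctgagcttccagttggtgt
Ifit3: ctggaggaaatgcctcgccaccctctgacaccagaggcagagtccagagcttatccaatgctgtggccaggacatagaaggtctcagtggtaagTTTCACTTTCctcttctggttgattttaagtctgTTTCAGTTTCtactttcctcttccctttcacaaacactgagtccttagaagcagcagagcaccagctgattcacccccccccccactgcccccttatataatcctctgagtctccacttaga
Rsad2: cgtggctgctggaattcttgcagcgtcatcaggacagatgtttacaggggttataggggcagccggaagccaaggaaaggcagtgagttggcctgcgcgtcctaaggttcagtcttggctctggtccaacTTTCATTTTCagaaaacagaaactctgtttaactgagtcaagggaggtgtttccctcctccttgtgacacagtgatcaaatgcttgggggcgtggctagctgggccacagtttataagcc
Trim30a: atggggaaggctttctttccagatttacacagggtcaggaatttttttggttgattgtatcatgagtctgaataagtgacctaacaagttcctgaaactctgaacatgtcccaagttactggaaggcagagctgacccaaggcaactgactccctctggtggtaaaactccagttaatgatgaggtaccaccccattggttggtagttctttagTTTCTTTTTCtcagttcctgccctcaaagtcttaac
Ifih1: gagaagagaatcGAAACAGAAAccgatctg
Eif2ak2: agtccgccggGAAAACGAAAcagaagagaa

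Ifit1 and Ifit3 each held the core in 2 places, both as TTTC runs, at -104 to -95 and -85 to -76 in Ifit1 and at -156 to -147 and -122 to -113 in Ifit3, counted back from the base before the start as -1. Rsad2 held it once at -120 to -111. Trim30a held it at -36 to -27 in the window shown and at 3 to 12 in a second window, which begins at another start. In Ifih1 it lay at 33 to 42 and in Eif2ak2 at 19 to 28, counted from the first transcribed base as 1.

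**Figure D2:**
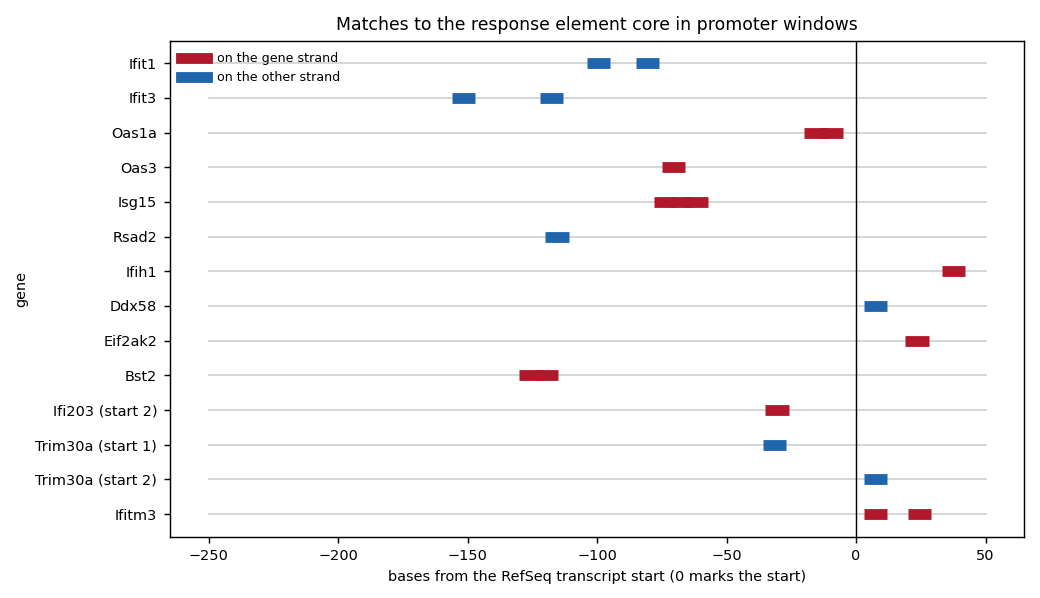
Places of the core (GAAA, any 2 bases, GAAA) in the promoter windows of the 13 genes that held it, in bases from the transcript start (horizontal axis), 1 line per window and colored by strand. Ifit1 and Ifit3 each have 2 matches before the start, and those of Ifih1, Ddx58, Eif2ak2, Ifitm3 and the second window of Trim30a lie after it.

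The IFIT proteins bind viral RNA that lacks host cap marks and block its translation. Ifit1 was at log2 8.35 and 8.27 on the wild-type marrow arrays, 5.85 and 5.81 on the HDC-KO marrow arrays, 7.24 and 7.25 in wild-type tumor and 9.38 and 9.25 in the pool labelled HDC-KO tumor. Ifit3 was at 9.44 and 9.48, 7.25 and 7.76, 6.35 and 6.34, and 9.24 and 9.34 in the same order. Both were high in wild-type marrow and in the pool labelled HDC-KO tumor and low between, and no pools overlapped for either gene, although the wild-type marrow arrays of Ifit3 lay just above those of the pool labelled HDC-KO tumor. Ifit3 has a close copy, Ifit3b, in the same gene cluster, and signal from the copies cannot be told apart here. Ifit2 varied less, with pool means of 9.66, 9.35, 9.52 and 9.90.

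The OAS enzymes make a short oligoadenylate that activates an RNA-cutting enzyme, and the OAS-like proteins act on RNA sensing and on Irf7. Oasl2 was at 9.63 and 9.86 in wild-type marrow, 7.43 and 7.45 in HDC-KO marrow, 5.56 and 5.77 in wild-type tumor and 8.5 and 8.25 in the pool labelled HDC-KO tumor. Oasl1, which lies next to Oasl2 in the RefSeq gene order, was at 7.08 and 7.02, 7.77 and 7.57, 8.53 and 8.59, and 9.94 and 9.89. Oasl1 thus stood lowest in the pool where Oasl2 stood highest, and neither gene's pools overlapped. Oas1a had pool means of 10.11, 10.21, 10.29 and 10.93, and Oas2 of 8.82, 8.98, 8.70 and 9.79, highest in the pool labelled HDC-KO tumor for both. Oas3 was near background throughout, at 5.13, 4.86, 4.31 and 4.43.

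Mx1 belongs to the Mx GTPases, whose functional forms block replication of influenza and related viruses. Whether Mx1 gives a working protein in these mice was not measured. Its transcript was at 3.75 and 3.99 in wild-type marrow, 4.29 and 3.94 in HDC-KO marrow, 5.03 and 5.20 in wild-type tumor and 7.89 and 8.51 in the pool labelled HDC-KO tumor. Mx1 was under background in both marrow pools, and it stood clear of background only in the pool labelled HDC-KO tumor. Mx2 stayed under log2 5 on every array, between 2.47 and 3.59. Of the ISG15 conjugation genes, Usp18, which removes ISG15 and dampens the interferon receptor, was at 8.15 and 7.91, 6.81 and 6.85, 6.48 and 6.40, and 8.59 and 8.40 in the 4 pools. Herc6, the mouse ligase that attaches ISG15, was at 7.39 and 7.36, 6.69 and 7.06, 7.64 and 7.48, and 8.69 and 8.40. Both were highest in the pool labelled HDC-KO tumor, but Usp18 was lowest in wild-type tumor and Herc6 in HDC-KO marrow.

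The transcription factors of the list differed. Irf7, which amplifies interferon production, was at 7.13 and 6.96 in wild-type marrow, 6.71 and 6.79 in HDC-KO marrow, 7.06 and 7.33 in wild-type tumor and 9.13 and 8.95 in the pool labelled HDC-KO tumor. Irf9, the DNA-binding part of the interferon-activated complex, was at 10.17 and 10.14, 10.23 and 10.26, 10.00 and 9.96, and 10.25 and 10.19. The wild-type pools overlapped for Irf7, which was higher in 1 pool alone, while the pool means of Irf9 spanned 9.98 to 10.25.

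Among the nucleic acid sensors and kinases, Zbp1, a sensor of Z-form nucleic acid that can start cell death, was at 7.45 and 7.24, 5.40 and 5.29, 7.26 and 7.43, and 8.99 and 8.71. Its wild-type pools overlapped, its HDC-KO marrow pool was lowest and its pool labelled HDC-KO tumor highest. Ifih1, the sensor of long double-stranded RNA also called MDA5, was at 9.35 and 9.35, 8.87 and 8.85, 9.12 and 9.28, and 10.82 and 10.86, with no overlap. Ddx58, the sensor RIG-I, had lower means in tumor than in marrow, 7.90, 7.64, 7.14 and 7.31. Its relative Dhx58 had means of 8.12, 7.97, 7.66 and 8.46. The kinase Eif2ak2, also called PKR, which shuts down translation, had means of 7.66, 7.24, 5.78 and 6.69, and Adar, which edits double-stranded RNA, 8.39, 8.57, 8.08 and 8.32. Ifi204, a DNA sensor, had means of 8.65, 8.49, 7.56 and 9.15, and its tumor arrays spread widely, from 7.2 to 7.91 in wild-type and from 8.84 to 9.45 in the other pool. Ifi203 lay between 2.67 and 2.82 on all arrays.

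Rsad2, or viperin, which makes a chain-terminating nucleotide, was at 10.62 and 10.66 in wild-type marrow, 9.24 and 9.38 in HDC-KO marrow, 9.65 and 9.71 in wild-type tumor and 11.02 and 11.11 in the pool labelled HDC-KO tumor. Cmpk2, a nucleotide kinase next to Rsad2 in the RefSeq gene order, was highest in wild-type marrow, with pool means of 11.30, 11.04, 10.41 and 10.23. The exonuclease Isg20 was at 7.79 and 7.75, 7.03 and 6.83, 7.71 and 7.72, and 8.87 and 9.27. Samhd1, which breaks down nucleotides, had means of 12.21, 12.09, 12.32 and 13.08. Rsad2 and Cmpk2 thus shared their place but not their order of levels over the pools.

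Of the membrane and secreted proteins, Lgals3bp, a secreted glycoprotein, was at 3.06 and 3.31 in wild-type marrow, 2.56 and 2.87 in HDC-KO marrow, 5.09 and 5.49 in wild-type tumor and 8.32 and 8.35 in the pool labelled HDC-KO tumor. Ifitm3, which blocks fusion of virus with the cell, was at 13.22 and 13.24, 13.16 and 13.09, 13.39 and 13.41, and 13.56 and 13.45. Lgals3bp was under background in marrow, and Ifitm3 was high in every pool. Bst2, which tethers budding virus, stayed under log2 5 on every array, with pool means of 3.37, 3.26, 2.95 and 4.64.

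Parp14, Dtx3l and Parp9 lie side by side in the RefSeq gene order, and Parp9 and Dtx3l work together as an ADP-ribosylating ubiquitin ligase. Parp14 was at 9.32 and 9.38, 8.82 and 8.77, 9.20 and 9.17, and 10.86 and 10.92. Parp9 was at 8.48 and 8.71, 8.62 and 8.47, 8.79 and 8.98, and 10.33 and 10.37. Dtx3l had pool means of 9.10, 8.94, 9.04 and 10.16, and Parp12, 8.98, 8.83, 9.16 and 10.41. All 4 genes had near levels in 3 pools and stood above them in the pool labelled HDC-KO tumor.

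The other genes of the list followed in part. Tor3a, an ATPase of the endoplasmic reticulum, was at 5.36 and 5.12, 4.78 and 4.81, 4.97 and 4.48, and 7.50 and 7.29. Xaf1, which promotes cell death, was at 8.90 and 8.69, 8.25 and 8.09, 8.32 and 8.55, and 10.03 and 10.12. Both stood well above their other pools in the pool labelled HDC-KO tumor. The pool means were 11.39, 11.34, 10.98 and 12.15 for the receptor chaperone Rtp4, 10.82, 10.75, 10.54 and 11.36 for Ifi35, and 11.44, 10.82, 11.43 and 12.17 for Trim30a. A second probe set of Trim30a had means of 11.61, 9.64, 10.47 and 11.07, highest in wild-type marrow.

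In bone marrow, where the comparison asked which genes differ in HDC-expressing myeloid cells without Hdc, 6 of the 35 tested genes fell in the HDC-KO pool and 0 rose. They were the RNA binders Ifit1 and Ifit3, the OAS-like Oasl2, the sensor Zbp1, the antiviral enzyme Rsad2 and the ISG15 protease Usp18. Fewer cells of a type and less RNA per cell cannot be told apart in such bulk pools. A gene passed at a limma adjusted p under 0.05 and a log2 difference of at least 1, and by this rule 2.02% of the 8174 tested genes were lower and 1.8% higher. Among the 31 genes above background in all pools the count was also 6. The median difference over the 35 was -0.27, against 0.0 over all tested genes.

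Ifit1 differed by -2.47 ± 0.06 (SE, 5.55-fold, adjusted p = 6.3e-06), Oasl2 by -2.30 ± 0.12 (adjusted p = 0.0001) and Zbp1 by -2.0 ± 0.12 (3.99-fold, adjusted p = 0.0002). Ifit3 differed by -1.95 ± 0.16 (adjusted p = 0.00054), Rsad2 by -1.33 ± 0.07 (2.52-fold, adjusted p = 9.6e-05) and Usp18 by -1.20 ± 0.10 (2.30-fold, adjusted p = 0.00067). The other 29 lay between -0.84 ± 0.14 for Isg20 and 0.62 ± 0.08 for Oasl1. Other genes in the role groups of those that fell did not pass, with Ifit2 at -0.31 ± 0.07, Oas1a at 0.10 ± 0.09, Oas2 at 0.16 ± 0.06, Ifih1 at -0.49 ± 0.06 and Ddx58 at -0.25 ± 0.06. The transcription factors Irf7 (-0.29 ± 0.11) and Irf9 (0.09 ± 0.05) did not pass either. For Zbp1 the call rests on 1 of its probe sets, since the other, under background in both marrow pools, gave -0.52. Trim30a was not called (-0.62 ± 0.06), but its second probe set gave -1.97 and the mean of its probe sets -1.29, which passed.

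In tumor, 21 of the 35 genes were higher in the pool labelled HDC-KO than in the wild-type pool and 0 lower, with members in every role group. Of all tested genes, 15.5% were higher and 10.5% lower by the same rule. Among the 31 genes above background in all pools, 18 were higher. The median difference over the 35 was 1.25, against 0.03 over all tested genes, and 34 of the 35 differences were above 0. The 6 genes that fell in HDC-KO marrow were all among these 21 of the 35. The same overlap was not counted over all tested genes, so it has no background share beside it. The marrow and tumor comparisons share no pool.

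The greatest rises were those of Mx1, by 3.09 ± 0.22 (8.52-fold, adjusted p = 4.3e-05), Lgals3bp, by 3.05 ± 0.17 (8.26-fold, adjusted p = 1.4e-05), Ifit3, by 2.95 ± 0.16 (adjusted p = 1.2e-05), and Oasl2, by 2.71 ± 0.12 (adjusted p = 6.7e-06). Tor3a, under background in wild-type tumor, was at least 5.26-fold higher (fitted difference 2.67 ± 0.17, adjusted p = 2.8e-05). The smallest that passed were Oas2 (1.09 ± 0.06), Dtx3l (1.12 ± 0.05), Rtp4 (1.17 ± 0.06) and Parp12 (1.25 ± 0.08). In the IFIT family 2 of 3 rose, with Ifit1 at 2.07 ± 0.06 beside Ifit2 at 0.38 ± 0.07, which did not pass. In the OAS family 3 of 5 rose, with Oasl1 at 1.36 ± 0.08, while Oas1a (0.64 ± 0.09) did not pass and Oas3 was under background in both tumor pools. Usp18 rose by 2.06 ± 0.10 and Irf7 by 1.84 ± 0.11, whereas Irf9, at 0.24 ± 0.05, did not pass.

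Of the 7 tested sensors and kinases 3 rose, namely Ifih1 (1.64 ± 0.06), Ifi204 (1.59 ± 0.27) and Zbp1 (1.5 ± 0.12). Eif2ak2 (0.91 ± 0.17), Dhx58 (0.80 ± 0.15), Adar (0.23 ± 0.07) and Ddx58 (0.18 ± 0.06) did not pass. All 4 PARP and ubiquitin ligase genes rose, with Parp14 at 1.71 ± 0.05 and Parp9 at 1.46 ± 0.11. Rsad2 rose by 1.39 ± 0.07 and Isg20 by 1.36 ± 0.14, but Samhd1 (0.76 ± 0.05) and Cmpk2 (-0.18 ± 0.08) did not pass. Xaf1 rose by 1.64 ± 0.11, while Ifi35 (0.82 ± 0.07), Trim30a (0.75 ± 0.06), Herc6 (0.99 ± 0.15) and Ifitm3 (0.11 ± 0.06) did not pass. Leaving out 1 array moved 3 of these past the threshold: Herc6 to 1.06 without wild-type tumor array 1 and to 1.13 with the pool labelled HDC-KO tumor read from its array 1 alone, Dhx58 to 1.03 without wild-type tumor array 1, and Eif2ak2 to 1.16 without wild-type tumor array 2 and to 1.01 with the pool labelled HDC-KO tumor read from its array 2 alone. Ifi35 passed at 1.16 when read from a probe set that no naming suffix marks as shared between transcripts.

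Among the tested genes with a window, 10 held the response element core and 15 did not, and their differences overlapped. In marrow, 3 of the 10 and 1 of the 15 were lower in HDC-KO, beside 2.02% of all tested genes, with medians of -0.45 and -0.26. In tumor, 4 of the 10 and 8 of the 15 were higher in the pool labelled HDC-KO, beside 15.5% of all tested genes. The medians there were 0.83 and 1.12.

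**Figure D3:**
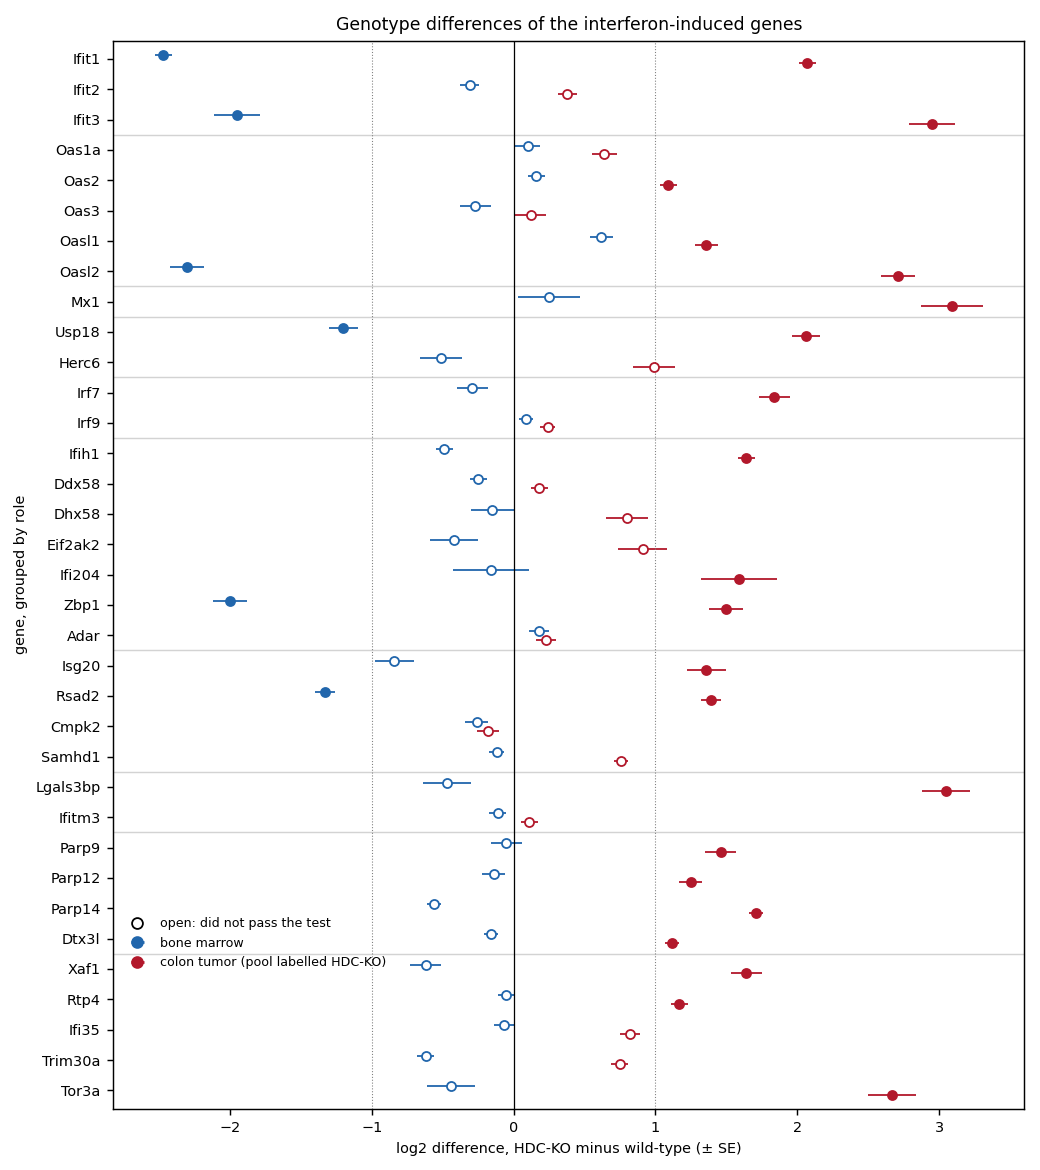
Log2 difference, HDC-KO minus wild-type (horizontal axis, ± SE), of the 35 tested genes grouped by role, in bone marrow (blue) and colon tumor (red). In tumor HDC-KO is the label of the pool. Filled points are genes that passed the test. The 6 filled marrow points lie at or below -1.20 and the 21 filled tumor points at or above 1.09.

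The tumor pools differed in other cell type markers as well. Of all tested genes, 15.5% were higher and 10.5% lower in the pool labelled HDC-KO tumor than in wild-type tumor. Averaged over its genes on the array, the monocyte and macrophage list was at log2 9.76 and 9.81 in wild-type tumor and at 11.27 on both arrays of the pool labelled HDC-KO tumor, and 9 of its 11 tested genes were higher there. Intestinal epithelium markers went from 7.44 and 7.45 to 9.99 and 10.09, with 12 of 13 tested genes higher. Conventional dendritic cell markers went from 6.45 and 6.47 to 8.16 and 8.09, with 5 of 5 tested genes higher and the defining markers Zbtb46, Xcr1 and Cd209a were under background on all arrays. Plasmacytoid dendritic cell markers, the cells best known for interferon secretion, went from 4.44 and 4.37 to 5.79 and 5.80, with 3 of 4 tested genes higher and the defining marker Siglech under background on all arrays. Granulocyte markers stayed between 13.42 and 13.74 in the tumor pools, and 0 of 10 passed in the genotype comparison. B and plasma cell markers went from 8.24 and 8.19 to 9.93 and 9.99, with 2 of 4 higher. T and NK cell markers went from 5.11 and 5.18 to 6.07 and 6.29, with 3 of 5 higher and 1 lower. A marker whose mean reached log2 5 only in the pool labelled HDC-KO tumor had to be higher there. With pool means under background raised to log2 5, the plasmacytoid median difference fell from 2.27 to 0.91. The T and NK median fell from 2.5 to 0.56, and those of the other marker lists did not change. The part of these cells in the rise of the interferon-induced genes was not tested. In marrow, 1.8% of all tested genes were higher in HDC-KO and 2.02% lower. There the monocyte and macrophage list was at 6.16 and 6.04 in wild-type and at 6.39 and 6.35 in HDC-KO, with 2 of 11 genes higher and 1 lower. The epithelial list was at 3.00 to 3.12, with 1 of 13 genes lower. Of the B and plasma cell markers, 1 of 4 was higher (Cd79b, 1.36) and 2 lower (Jchain, -3.82, and Ighm, -1.08), and the list went from 6.46 and 6.48 in wild-type to 5.95 and 6.05 in HDC-KO. Of the T and NK cell markers, 2 of 5 were higher (Cd3d, 4.85, and Gzma, under background in both pools) and 1 lower (Nkg7, -1.06), and the list went from 4.37 and 4.04 to 4.93 and 5.01. Of the plasmacytoid markers 1 of 4, Spib, was higher, also under background in both pools, and 0 of 10 granulocyte and 0 of 5 conventional dendritic cell markers passed. The part of these cells in the 6 marrow differences was not tested.

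**Figure D4:**
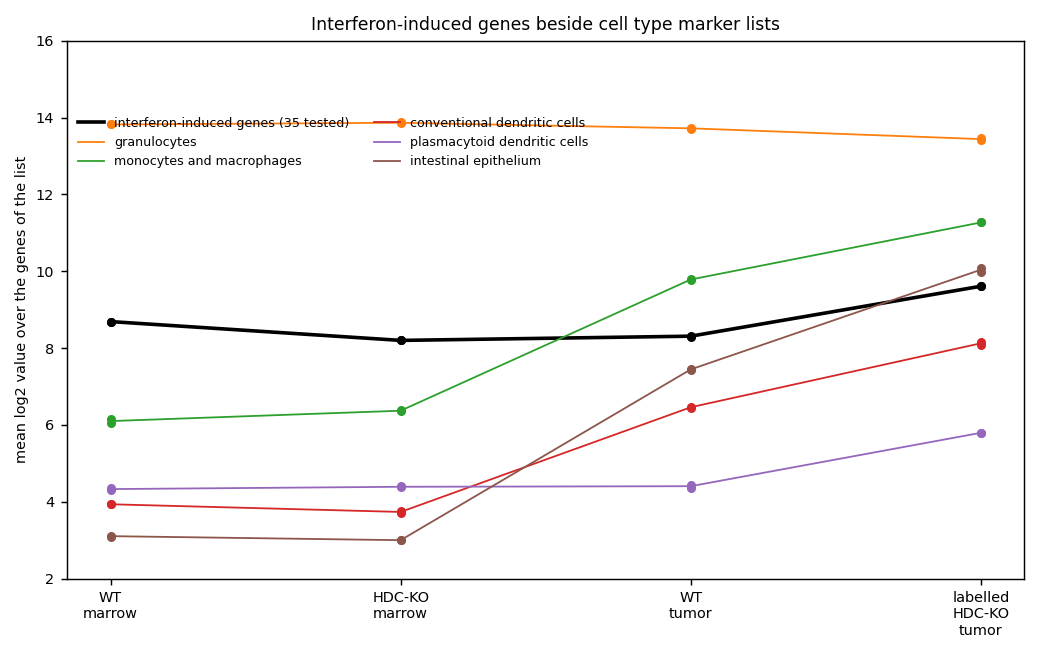
Mean log2 expression value (vertical axis) over the genes of each list on the 2 arrays of each pool (points), for the 35 tested interferon-induced genes and 5 cell type marker lists. The interferon-induced genes fall from 8.69 in wild-type marrow to 8.20 in HDC-KO marrow and reach 9.61 in the pool labelled HDC-KO tumor, where the macrophage, dendritic and epithelial lists are also highest.

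Between wild-type tumor and wild-type marrow the list moved in both directions, with 3 of the 35 genes higher and 6 lower. Of all tested genes 11.6% were higher and 4.81% lower. Among the 31 genes above background in all pools, 1 was higher and 6 lower. The median difference was -0.16, against -0.03 over all tested genes. This comparison shares the wild-type marrow pool with the marrow genotype comparison and the wild-type tumor pool with the tumor one.

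Oasl2 was lower in tumor by -4.08 ± 0.12 on the log2 scale (16.9-fold, adjusted p = 1.8e-06), Ifit3 by -3.11 ± 0.16 (8.66-fold, adjusted p = 1.4e-05), Eif2ak2 by -1.88 ± 0.17 (3.68-fold, adjusted p = 0.00024) and Usp18 by -1.59 ± 0.10 (3.01-fold, adjusted p = 4.6e-05). Ifit1 followed at -1.06 ± 0.06 (adjusted p = 3.7e-05). Ifi204 passed at -1.1 ± 0.27 (adjusted p = 0.015), but not when wild-type marrow array 1 (-1.06), wild-type marrow array 2 (-1.13) or wild-type tumor array 2 (-0.74) was left out. Oasl1 rose by 1.5 ± 0.08 (2.83-fold, adjusted p = 1.9e-05), opposite to its neighbour Oasl2. Lgals3bp (fitted 2.11 ± 0.17) and Mx1 (fitted 1.25 ± 0.22) passed from under background in marrow, and with low values raised to log2 5 they differed by 0.29 and 0.11 and no longer passed. The nearest genes that did not pass were Rsad2 (-0.96 ± 0.07), which passed at -1.11 when its probe sets were averaged, Cmpk2 (-0.89 ± 0.08), Oas3 (fitted -0.83 ± 0.11) and Ddx58 (-0.76 ± 0.06). Zbp1 differed by 0.00 ± 0.12 and Trim30a by -0.01 ± 0.06, and neither passed, but the second probe set of Trim30a gave -1.14.

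Between the pool labelled HDC-KO tumor and HDC-KO marrow, 19 of the 35 genes were higher in tumor and 0 lower. Of all tested genes 21.1% were higher and 15.4% lower, the greatest background of the comparisons. Among the 31 genes above background in all pools, 16 were higher. The median difference was 1.35, against -0.02 over all tested genes, and it moved to 1.46 with a filter at log2 7.

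Zbp1 rose by 3.51 ± 0.12 (11.4-fold, adjusted p = 1e-06) and Ifit1 by 3.48 ± 0.06 (11.2-fold, adjusted p = 1e-07). Lgals3bp was at least 10.1-fold higher (fitted 5.62 ± 0.17, adjusted p = 5.1e-07) and Mx1 at least 9.22-fold (fitted 4.09 ± 0.22, adjusted p = 6.9e-06), both from under background in marrow. The smallest that passed were Dtx3l (1.22 ± 0.05), Trim30a (1.35 ± 0.06), Parp12 (1.57 ± 0.08), Herc6 (1.67 ± 0.15) and Usp18 (1.67 ± 0.10). Herc6 did not pass with its probe sets averaged (0.92). Ifit3 rose by 1.78 ± 0.16, and Oasl2, at 0.94 ± 0.12, did not pass, except at 1.06 with the pool labelled HDC-KO tumor read from its array 1 alone. The sensors again differed, with Ifih1 higher by 1.98 ± 0.06 and Ddx58 (-0.33 ± 0.06), Eif2ak2 (-0.55 ± 0.17) and Adar (-0.26 ± 0.07) not passing. Irf7 rose by 2.29 ± 0.11 beside Irf9 at -0.03 ± 0.05, and Rsad2 by 1.76 ± 0.07 beside Cmpk2 at -0.81 ± 0.08.

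**Figure D5:**
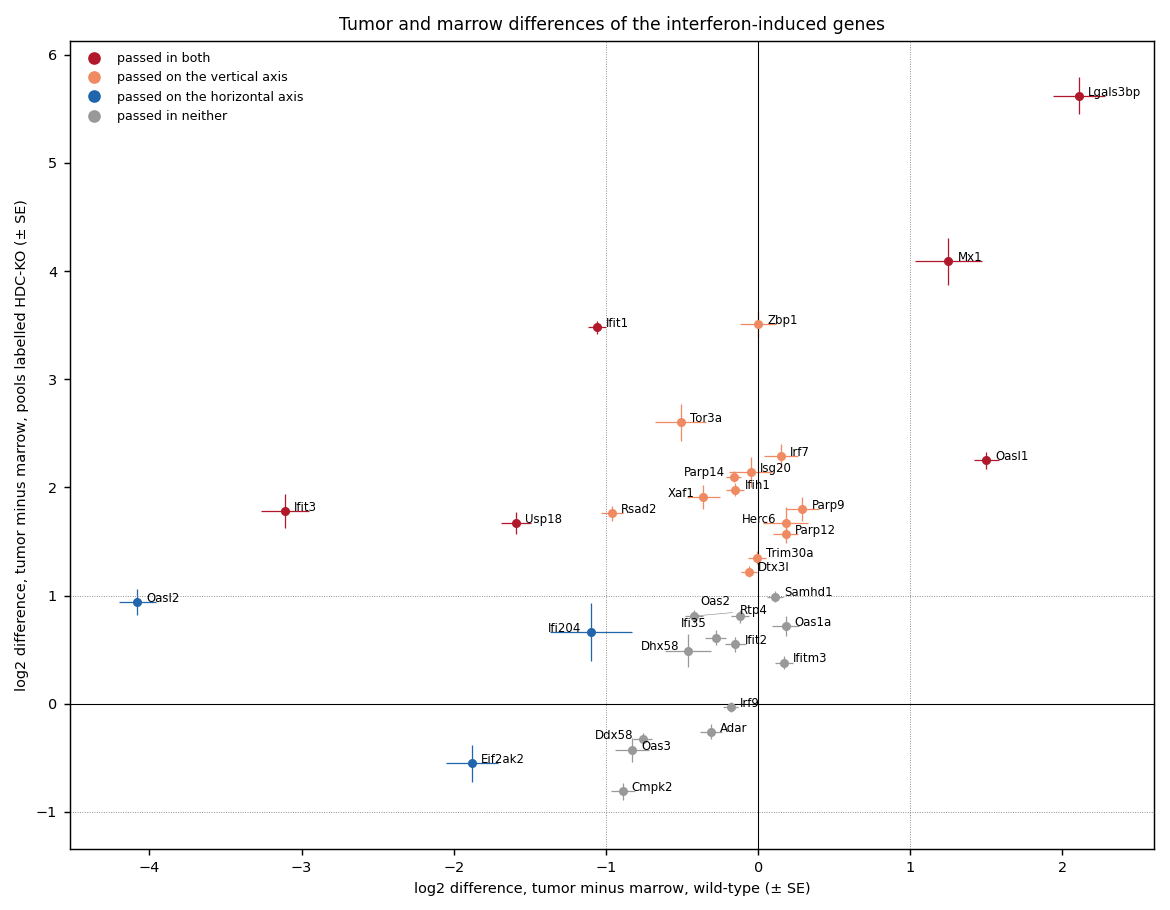
Log2 difference, tumor minus marrow, in the wild-type pools (horizontal axis, ± SE) and in the pools labelled HDC-KO (vertical axis, ± SE), for the 35 tested genes, colored by which differences passed the test. Zbp1 sits at 0.00 on the horizontal and 3.51 on the vertical axis, and Oasl2 at -4.08 and 0.94.

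Whether the genotype difference itself differed between tumor and marrow was tested as an interaction. The tumor side compares pools by label, since Hdc was not lower in the pool labelled HDC-KO tumor by the rule used. The interaction passed for 22 of the 35 genes, each with a higher difference in tumor, and for 0 in the other direction. Among all tested genes 16.8% were higher and 11.7% lower. Among the 31 genes above background in all pools, 19 passed. The median difference of effects was 1.39, against 0.05 over all tested genes.

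The 5 greatest differences of effects were 5.01 ± 0.17 for Oasl2, 4.90 ± 0.22 for Ifit3, 4.54 ± 0.09 for Ifit1, 3.52 ± 0.23 for Lgals3bp and 3.50 ± 0.18 for Zbp1. Lgals3bp was under background in both marrow pools, and the other 4 fell in HDC-KO marrow and were higher in the pool labelled HDC-KO tumor. The smallest that passed were Rtp4 (1.23 ± 0.09), Dtx3l (1.28 ± 0.08), Eif2ak2 (1.33 ± 0.25) and Trim30a (1.36 ± 0.08, but 2.56 by its second probe set). Of the 13 genes that did not pass, 11 passed in none of the 5 tests: Ifit2, Oas1a, Oas3, Irf9, Ddx58, Dhx58, Ifi35, Cmpk2, Samhd1, Adar and Ifitm3. The other two were Oas2 (0.93 ± 0.09) and Oasl1 (0.75 ± 0.11), both higher in tumor by genotype. Dhx58, at 0.95 ± 0.21, passed when wild-type marrow array 1 (1.01), wild-type tumor array 1 (1.18) or array 1 of the pool labelled HDC-KO tumor (1.04) was left out. With the probe sets of a gene averaged, Rtp4 (0.96) and Herc6 (0.81 against 1.49 ± 0.21) did not pass.

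The interferons themselves were not measured above background. Of 10 interferon genes, 8 were measured (Ifnb1, Ifna1, Ifna2, Ifna4, Ifna5, Ifna11, Ifnab and Ifng), and all 8 were under background on every array, so 0 were tested. Of 42 genes of the pathway outside the list, 23 were tested. In marrow, 1 of them, Tlr7, an RNA-sensing receptor of endosomes, was higher in HDC-KO (1.16 ± 0.10) and 0 were lower. In tumor, 6 were higher and 0 lower in the pool labelled HDC-KO, led by Irf5 (2.53 ± 0.18) and Tlr7 (2.2 ± 0.10), then Irf8 (1.88 ± 0.12) and the RIG-I adaptor Mavs (1.40 ± 0.15). Between wild-type tumor and marrow 5 were higher and 0 lower, led by Socs3, a feedback inhibitor of cytokine receptors (3.62 ± 0.13), with Irf8 at 1.80 ± 0.12 and Irf5 at 1.1 ± 0.18. Between the pools labelled HDC-KO 9 were higher and 0 lower, led by Socs3 (4.43 ± 0.13) and Irf5 (3.69 ± 0.18). Of all tested genes 1.8%, 15.5%, 11.6% and 21.1% were higher in these comparisons, in the same order. The shares lower were 2.02%, 10.5%, 4.81% and 15.4%.

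Of the receptor chains, Ifnar1 was at 7.07 and 6.99 in wild-type marrow, 7.23 and 7.27 in HDC-KO marrow, 8.30 and 7.97 in wild-type tumor and 7.85 and 7.99 in the pool labelled HDC-KO tumor. Its tumor pools overlapped, and it was higher in wild-type tumor than in wild-type marrow (1.1 ± 0.11). Ifnar2 was at 10.54 and 10.50, 10.57 and 10.55, 11.29 and 11.40, and 11.5 and 11.44, and passed no test. The interferon gamma receptor chains Ifngr1 (1.08 ± 0.1) and Ifngr2 (1.02 ± 0.07) were higher in the pool labelled HDC-KO tumor than in wild-type tumor. Neither passed by genotype in marrow (-0.28 ± 0.1 and 0.07 ± 0.07). The difference of effects passed for Ifngr1 (1.37 ± 0.14) but not for Ifngr2 (0.94 ± 0.1). Irf1, a factor strongly induced by interferon gamma, was at 10.04 and 10.03, 9.83 and 9.82, 10.13 and 10.19, and 10.90 and 10.92, and passed between the pools labelled HDC-KO (1.08 ± 0.05). Stat2 was under background on every array.

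A list of 20 genes better known as targets of interferon gamma was read beside the type I list. Of its 17 tested genes, Gbp6, Iigp1, Ciita and Cxcl9 passed the filter through the pool labelled HDC-KO tumor, the only pool where their means reached background, and so had to be higher there. Of the 17, 3 were lower and 0 higher in HDC-KO marrow, beside 2.02% lower and 1.8% higher among all tested genes. They were Cd274 (fitted -1.87 ± 0.13, its HDC-KO marrow mean under background), Tap1 (-1.31 ± 0.09) and Igtp (-1.02 ± 0.07). The median over the 17 was -0.34. In tumor 11 were higher and 0 lower in the pool labelled HDC-KO, beside 15.5% higher among all tested genes, with a median of 1.35, or 1.25 with pool means under background raised to log2 5. The difference of effects passed for 16, each higher in tumor, beside 16.8% of all tested genes, with a median of 2.27, or 1.88 with raised means. Among the 12 genes with all 4 pool means above background, 2 were lower in HDC-KO marrow, 7 were higher in tumor by genotype and 11 passed in the difference of effects. The medians of the type I list were -0.27, 1.25 and 1.39. Many genes of either list are known to answer to both kinds of interferon.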

How the data were processed

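RNA of sorted myeloid cells was labelled with biotin and put on Affymetrix arrays. The deposited log2 expression values were made by the authors with GCRMA (background correction, normalization between arrays, probe summary), per the submitters' processing notes (version: not given in the sources used here). That they are on a log2 scale was taken from their range, 0.75 to 15.34. Precision is limited by the 8 arrays.

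Arrays were grouped by their titles. Genes were named from the platform annotation: 34958 probe sets had 1 symbol, 932 several and 9211 none, and only the first were used. The genes described, their roles and the other lists were chosen with earlier results of these data known. Values on every array are given for the tested genes whose pool means ranged most in each role group, with the greatest and smallest differences that passed in each comparison.

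Differences were fitted with limma 3.58.1 in R 4.3.3 (lmFit, eBayes) over 8174 genes in 4 groups (4 residual degrees of freedom, 2.14 prior) and Benjamini-Hochberg adjustment. The fit was tested on simulated data. Errors of differences are moderated SEs (n = 2 technical arrays per pool). Where a pool mean was under log2 5, a fold is a bound with that mean raised to 5. Promoter windows are RefSeq's (GRCm38.p6). Alternatives were other filters, raised values, quantile normalization, median centring, other probe set rules, other fits, a replicate block, averaged arrays and each array left out. Same-numbered arrays did not deviate together (correlations of -0.015 to 0.058).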

Additional observations from a re-analysis of the deposited data

Results flagged for a closer look

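For 22 of the 35 tested interferon-induced genes the genotype difference in tumor, by label, differed from that in marrow by the limma interaction test. By the same rule 16.8% of all tested genes were higher and 11.7% lower. The log2 difference of effects was 5.01 for Oasl2, 4.90 for Ifit3, 4.54 for Ifit1, 3.50 for Zbp1, 3.26 for Usp18 and 2.72 for Rsad2, which fell in HDC-KO marrow and were higher in the pool labelled HDC-KO tumor. It was 3.52 for Lgals3bp, 3.11 for Tor3a and 2.84 for Mx1, each with at least 2 pool means under background. Among the PARP and ubiquitin ligase genes it was 2.27 for Parp14, 1.52 for Parp9, 1.39 for Parp12 and 1.28 for Dtx3l. It was 2.26 for Xaf1, 2.19 for Isg20, 2.13 for Irf7, 2.13 for Ifih1 and 1.75 for Ifi204. The smallest were 1.49 for Herc6, 1.36 for Trim30a (2.56 by its second probe set), 1.33 for Eif2ak2 and 1.23 for Rtp4. Each pool is 1 RNA sample, so these values carry no spread between mice.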

How the results depend on the processing

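The counts of genes that passed, higher and lower together, stayed within 1.5 times their reported values in each of the 5 comparisons under every alternative that gave a test, and averaging the arrays gave none. With values raised to log2 5 the genes higher in wild-type tumor than marrow went from 3 to 1. The lowest against its reported value was 4 in place of 6 in marrow without probe sets whose suffix marks shared transcripts, where 28 genes were tested. With the replicate block the counts were 6, 21, 9, 19 and 22 in the order of the comparisons above, as without it. The median difference between the pools labelled HDC-KO moved from 1.35 to 1.46 with a filter at log2 7, where Oas3 dropped out and 34 genes were tested, and ranged from 1.30 to 1.46 with 1 array left out. The averaged arrays repeat the reported differences without a test, so their 35 values per comparison count as unchanged by construction. Of 3235 alternative values of single genes, these included, 3196 counted as unchanged in sign and side of the threshold. Of the rest, 9 no longer passed, 17 newly passed and 13 changed sign. Among these 13, the one that passed was Tor3a between wild-type tumor and marrow, at 1.67 without the suffixed probe sets, where another probe set was read, against -0.51. With probe sets averaged, signs changed without passing for Tor3a (0.51), Samhd1 (-0.09) and Dtx3l (0.02) in that comparison, for Rtp4 in marrow (0.06) and for the difference of effects of Adar (-0.07). With quantile normalization they did so for Oas3 in tumor (-0.09) and Irf9 between the pools labelled HDC-KO (0.02). With 1 array left out, Parp9 in marrow ranged from -0.17 to 0.06, Oas3 in tumor from -0.03 to 0.28 and the difference of effects of Adar from -0.01 to 0.12. The difference of effects was not refitted within only the groups compared, since it uses all 4. Mx1, Lgals3bp, Tor3a and Oas3 were limited by signal near background.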

Other observations

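Some genes had further probe sets above background on at least 2 arrays. The other two of Rsad2 differed by -1.97 and -1.30 in marrow and by 2.12 and 1.51 in tumor, against -1.33 and 1.39 for the one used. The second probe set of Parp14 gave 1.82 in tumor against 1.71, that of Dtx3l 1.22 against 1.12, and that of Eif2ak2 -1.83 between wild-type tumor and marrow against -1.88. The probe sets of Tor3a disagreed in direction between wild-type tumor and marrow, since the second one had pool means of 3.61, 3.41, 5.28 and 7.44. Those of Ddx58 did so between the pools labelled HDC-KO (0.24 against -0.33) and those of Samhd1 between the wild-type pools (-0.31 against 0.11). Both placed Tor3a highest in the pool labelled HDC-KO tumor, by 2.16 and 2.67 over wild-type tumor.

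Neighbouring genes of the list did not always move together. Parp14, Dtx3l and Parp9, side by side, were all higher in the pool labelled HDC-KO tumor. Rsad2 and Cmpk2, with 0 protein-coding genes between them, differed by 1.39 and -0.18 there, and Oasl2 and Oasl1 by -2.30 and 0.62 in marrow. Ifit3 and Ifit2, also adjacent, differed by 2.95 and 0.38 in tumor.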
